A study of Mus musculus with 18 samples.

Results

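The microglial lineage transcription factors are a set of 9 genes, Sall1, Sall3, Mef2a, Mef2c, Maf, Irf8, Spi1, Runx1 and Bhlhe41, picked by gene symbol from the 36172 genes of the deposited matrix. The symbol of 8 was found as written, and Spi1 was found under its older symbol Sfpi1. After a filter that kept genes with over 20 normalised counts in every library of at least 1 group, 8 of the 9 were tested, since Bhlhe41 was listed at 0 in each library.

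Microglia arise from yolk sac progenitors, and a small group of DNA-binding proteins builds and keeps their identity. PU.1, the protein made from Spi1, is the ETS-family master regulator of myeloid cells. IRF8 often binds DNA together with PU.1, and RUNX1 acts early in the myeloid lineage. SALL1 is a zinc finger factor that in the adult brain is largely held to be microglial within the immune system, while MEF2 proteins, which also act in neurons, and MAF are linked to the adult, resting state.

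Brain tissue came from Cx3cr1-cre/ERT2+/wt; NuTRAP flox/wt mice of about 3 months, all of which had received tamoxifen 3 to 4 weeks earlier. Cre under the Cx3cr1 locus then turns on a ribosomal protein fused to EGFP wherever Cx3cr1 is active, in microglia, macrophages at the brain's borders and some blood cells, and the heterozygous cre insertion leaves 1 working copy of Cx3cr1. Animals were injected intraperitoneally with lipopolysaccharide (LPS), a bacterial outer membrane component, at 5 mg/kg, or with phosphate-buffered saline (PBS), and were sampled 24 h later. Whole lysate (input) and RNA pulled down with the tagged ribosomes (positive) were sequenced from each of 9 animals, 4 with PBS and 5 with LPS. The 4 groups were Input PBS, Input LPS and Positive PBS with 4 usable libraries each and Positive LPS with 5, and a library is named by its group and its animal.

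The 17 libraries used held between 22968939 and 35123345 counts. The input library of LPS animal 271 held 1252 counts, with all 9 lineage factors at 0, and was left out, so n is the number of animals in each group. The label of the positive fraction was checked against a microglia list of the study, 236 genes once lineage factors were removed. Of the 235 tested, the median log2 difference between positive and input was 3.33 in PBS animals and 3.15 in LPS animals. The positive libraries also held RNA of other cells. In Positive PBS the 99 genes of a neuron list summed to 699770 to 777905 normalised counts, and in Positive LPS to 545849 to 687029. Their sums were 750862 to 763736 in Input PBS and 690210 to 740676 in Input LPS. In PBS animals 27 of them were higher and 14 lower in positive than in input (median log2 difference 0.05). In LPS animals 12 were higher and 32 lower (-0.18). The scaling sets the typical gene near 0 (median of all genes tested -0.0009 in PBS animals, and -0.13 with the deposited log2 values). On this scale the neuron list as a whole was thus not below the typical gene in PBS animals. Whether the typical gene was itself depleted by the pull-down cannot be read from such scaled values, and all differences between fractions given here share this limit. In a separate RNAseq of this line the study reported depletion of neuronal genes.

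The genes lie on 7 chromosomes of mouse build mm10. Sall1 (chr8:89027243-89044162, minus strand), Maf (chr8:115703253-115706894, minus strand) and Irf8 (chr8:120736376-120756692, plus strand) share chromosome 8. Mef2a is at chr7:67233827-67372858 on the minus strand and Mef2c at chr13:83504034-83667079 on the plus strand. Spi1 is at chr2:91096797-91115756 on the plus strand, Runx1 at chr16:92601466-92826066 on the minus strand and Bhlhe41 at chr6:145862737-145865340 on the minus strand.  All 9 are annotated as protein-coding. Counts were deposited per gene, so isoforms from alternative promoters were not told apart. The deposited spans leave out part of the annotated exons, most of all for Maf, Spi1 and Bhlhe41.

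RefSeq promoters (build GRCm38.p6, 250 bases before to 50 bases after the start) were read for 6 of the 9 genes, Sall1, Mef2a, Mef2c, Irf8, Runx1 and Bhlhe41. Shown 5′ to 3′ on the gene's strand are those of Irf8 (chr8:120736108-120736407, plus strand) and Runx1 (chr16:92826025-92826324, minus strand), which rose with LPS in the positive fraction, and of Sall1 (chr8:89044113-89044412, minus strand) and Mef2c (chr13:83503784-83504083, plus strand), which fell. Capitals mark matches on either strand to 6 motifs of these factor families, namely the PU.1 core GAGGAA, RUNX TGTGGT, the E-box CACGTG, the MAF half-site TGCTGA, the IRF repeat AAANNGAAA and the MEF2 consensus.
Irf8: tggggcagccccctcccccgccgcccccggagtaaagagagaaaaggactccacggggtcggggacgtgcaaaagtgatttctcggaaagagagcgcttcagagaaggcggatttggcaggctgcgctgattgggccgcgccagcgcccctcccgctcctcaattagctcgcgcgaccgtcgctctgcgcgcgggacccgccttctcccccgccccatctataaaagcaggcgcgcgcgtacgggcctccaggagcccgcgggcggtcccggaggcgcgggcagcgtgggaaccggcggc
Runx1: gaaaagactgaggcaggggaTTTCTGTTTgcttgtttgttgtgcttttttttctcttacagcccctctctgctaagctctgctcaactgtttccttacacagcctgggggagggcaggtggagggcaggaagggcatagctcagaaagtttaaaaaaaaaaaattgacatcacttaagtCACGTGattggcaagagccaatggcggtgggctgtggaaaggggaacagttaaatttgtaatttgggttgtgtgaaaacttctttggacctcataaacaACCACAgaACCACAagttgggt
Sall1: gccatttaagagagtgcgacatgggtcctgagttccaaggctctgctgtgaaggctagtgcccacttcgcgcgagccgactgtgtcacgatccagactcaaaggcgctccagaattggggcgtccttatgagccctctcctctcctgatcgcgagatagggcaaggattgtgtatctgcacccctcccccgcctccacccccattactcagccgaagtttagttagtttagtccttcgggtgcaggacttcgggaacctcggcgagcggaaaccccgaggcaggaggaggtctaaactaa
Mef2c: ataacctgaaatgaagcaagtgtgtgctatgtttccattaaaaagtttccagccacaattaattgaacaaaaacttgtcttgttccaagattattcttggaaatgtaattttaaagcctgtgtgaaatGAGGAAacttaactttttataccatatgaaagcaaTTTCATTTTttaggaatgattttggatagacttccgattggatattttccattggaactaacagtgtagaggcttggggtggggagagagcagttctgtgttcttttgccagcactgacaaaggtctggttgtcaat

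For each gene 1 promoter was searched, while 3 were listed for Sall1 and for Mef2c and 2 for Irf8 and for Runx1. The promoters searched for Irf8 and Sall1 held no match to the 6 motifs. That of Runx1 held 2 RUNX matches on the minus strand, 28 and 36 bases after the start, an E-box 71 bases before it and an IRF repeat 230 bases before it. That of Mef2c held a PU.1 core 122 bases before the start and an IRF repeat 87 bases before it. The marked matches did not overlap. Of the promoters not printed, that of Mef2a held 2 PU.1 cores and 1 MEF2 consensus, and that of Bhlhe41 held 1 E-box. Among all 32851 promoters of this length, 28.3% held the PU.1 core, 16.8% the RUNX letters, 7.15% the E-box, 19.5% the MAF half-site, 10.6% the IRF repeat and 3.19% the MEF2 consensus. The promoters also differed in base composition, with GC contents of 70.0% for Irf8, 57.3% for Sall1, 45.0% for Runx1 and 35.7% for Mef2c. A match is a description of these letters and not evidence of binding.

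**Figure D1:**
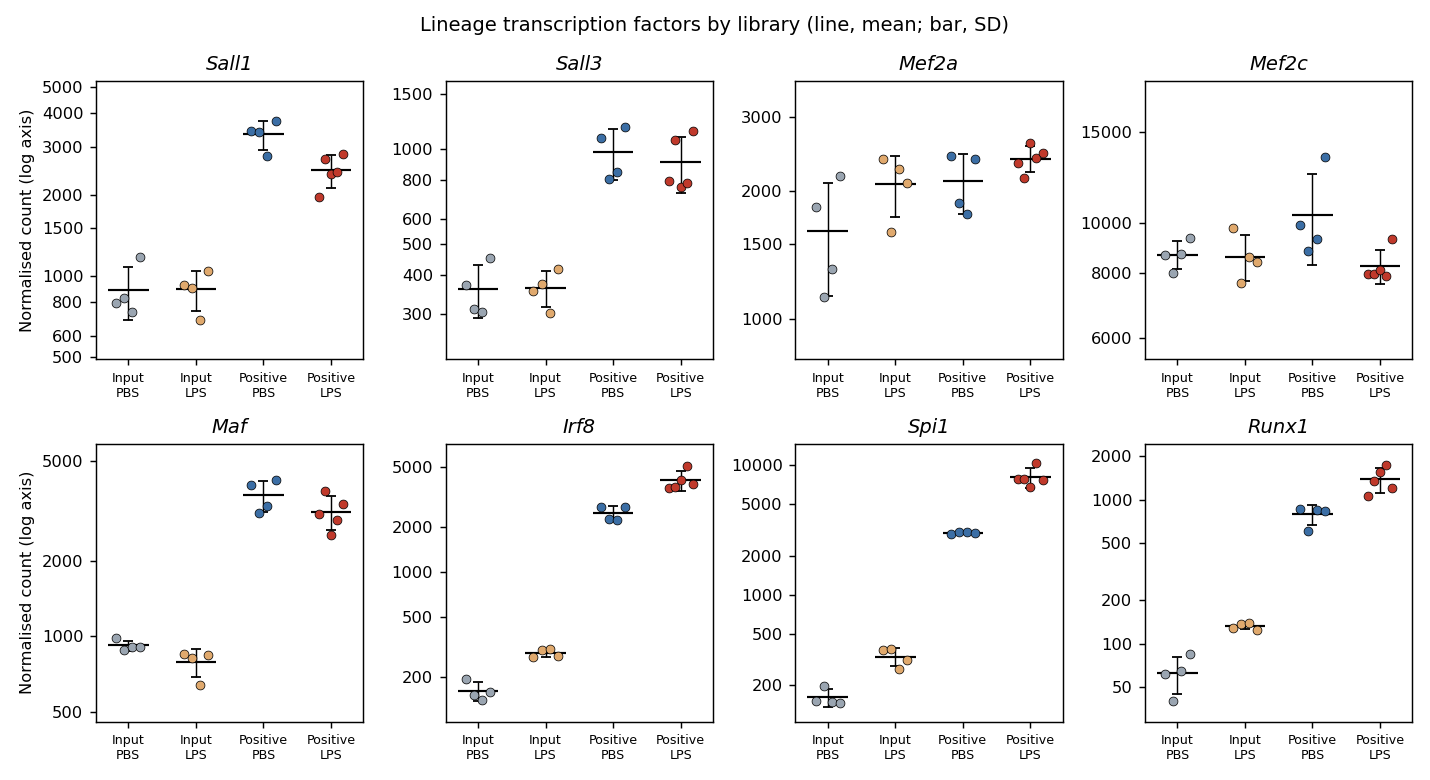
Normalised counts (log axis, a separate scale in each panel) of the 8 tested lineage factors, with a point for each library of every group, a line at the mean and bars of 1 SD. Spi1, Irf8 and Runx1 sit higher in every Positive LPS library than in every Positive PBS library, while Mef2a and Mef2c differ little between positive and input.

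The first comparison asked how far each factor was enriched on tagged ribosomes. In PBS animals 6 of the 8 tested factors were higher in the positive fraction than in input and none was lower, where 39.8% of all genes tested were called in either direction and 21.0% were called higher. Calls needed both an adjusted p (Benjamini-Hochberg) below 0.05 and a log2 change of more than 0.322 in size. The strongest enrichment was that of the early myeloid factors. Spi1 was 18.7-fold higher (log2 4.22, SE 0.15, adjusted p = 1.40e-13), Irf8 15.3-fold (log2 3.94, SE 0.13, adjusted p = 8.98e-14) and Runx1 12.5-fold (log2 3.64, SE 0.20, adjusted p = 4.48e-11). Sall1, Sall3 and Maf were enriched less. Maf was 3.97-fold higher (log2 1.99, SE 0.13, adjusted p = 3.75e-10), Sall1 3.78-fold (log2 1.92, SE 0.16, adjusted p = 1.04e-08) and Sall3 2.71-fold (log2 1.44, SE 0.17, adjusted p = 2.02e-06). The MEF2 factors did not pass in this fit, with log2 differences of 0.39 for Mef2a (SE 0.17, adjusted p = 0.0700) and 0.26 for Mef2c (SE 0.11, adjusted p = 0.0725). Both fractions came from the same animals, and with the replicate block by animal Mef2a was called (log2 0.42, adjusted p = 0.00491 in limma and 0.00140 in edgeR). Mef2c reached adjusted p-values of 0.0194 and 0.0290 with the block, but its log2 differences of 0.24 and 0.23 were under the threshold on size.

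Set beside the microglia list, the factors spread over its whole range. In PBS animals the list's middle range of log2 differences, from the lower to the upper quartile, was 2.46 to 3.99. Of the 235 list genes, 205 had a smaller enrichment than Spi1, 169 than Irf8 and 144 than Runx1. By contrast 43 had a smaller enrichment than Maf, 42 than Sall1 and 29 than Sall3. Only 6 list genes lay below Mef2a and 4 below Mef2c. Some lists of other cells were also higher in the positive fraction of PBS animals. These included 9 of 9 border macrophage genes (median log2 4.02), 7 of 8 endothelial genes (1.45) and 7 of 7 inhibitory neuron genes (0.79). Medians were below 0 for the astrocyte (-0.35), oligodendrocyte (-0.86), oligodendrocyte precursor (-1.64), neutrophil (-1.26) and erythrocyte (-3.03) lists. An enrichment of the size of Sall3 was thus not particular to microglia genes.

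In LPS animals the called factors again numbered 6 of 8, all higher, where 53.4% of genes were called in either direction and 27.6% were called higher. Spi1 reached 24.3-fold (log2 4.60, SE 0.14, adjusted p = 3.99e-14), above each of the 235 list genes. Irf8 was 14.0-fold higher (log2 3.81, SE 0.13, adjusted p = 6.94e-14) and Runx1 10.5-fold (log2 3.39, SE 0.19, adjusted p = 3.32e-11). Maf stood at log2 1.99 (SE 0.12, adjusted p = 1.76e-10), Sall1 at 1.46 (SE 0.15, adjusted p = 1.38e-07) and Sall3 at 1.33 (SE 0.17, adjusted p = 1.95e-06). Mef2a (log2 0.20, SE 0.16, adjusted p = 0.304) and Mef2c (log2 -0.06, SE 0.11, adjusted p = 0.634) again did not pass.

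**Figure D2:**
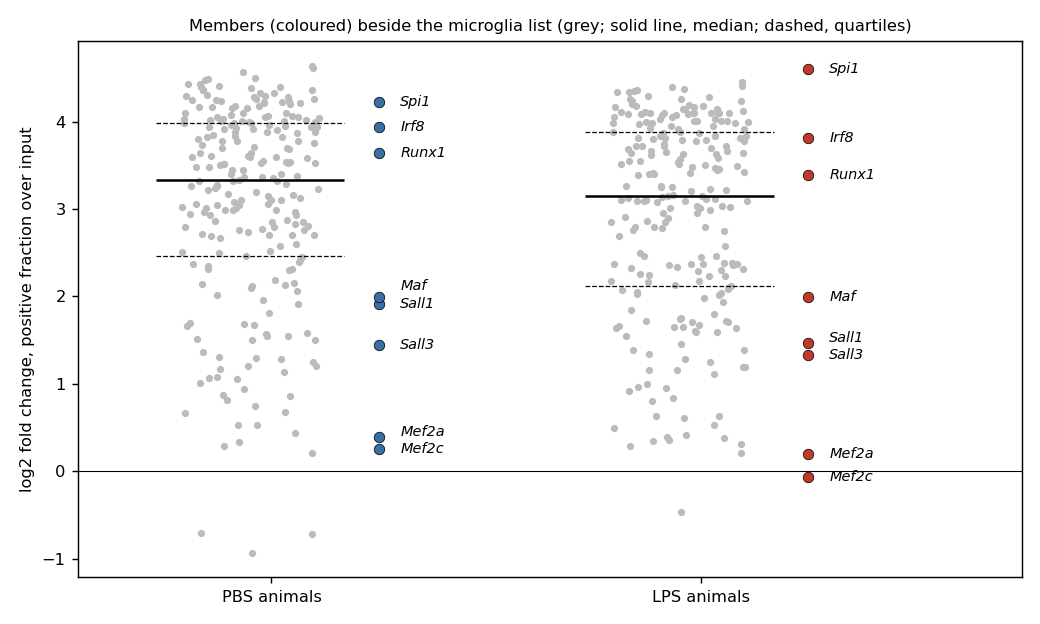
Fitted positive over input (log2) of each tested lineage factor (coloured points) in PBS and in LPS animals, beside the 235 genes of the study's microglia list (grey points; solid line, median; dashed lines, quartiles). Spi1, Irf8 and Runx1 lie above the list's median of 3.33 (PBS) and 3.15 (LPS), and Mef2a and Mef2c lie near 0.

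The enrichment was also taken within each animal that had both libraries, as the log2 ratio of its normalised counts. For Sall1 it averaged 1.93 ± 0.19 in PBS animals (SD, n = 4) and 1.47 ± 0.30 in LPS animals (n = 4). For Spi1 it averaged 4.23 ± 0.19 and 4.51 ± 0.15, and for Runx1 3.68 ± 0.27 and 3.27 ± 0.19. For Maf, a bZIP factor of macrophages, the averages were 1.98 ± 0.18 and 2.01 ± 0.15. The ratio of Mef2a was above 0 in 4 of 4 PBS animals (0.14 to 0.74) and averaged 0.42 ± 0.25 there and 0.21 ± 0.19 in LPS animals. That of Mef2c was also above 0 in 4 of 4 PBS animals (0.09 to 0.52) and averaged 0.24 ± 0.19 and -0.04 ± 0.20.

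Levels between genes were compared per kilobase of exon inside the deposited span of each gene. In Positive PBS the order was Spi1 with 2213 ± 38.3 normalised counts per kb (SD, n = 4), Maf with 1003 ± 144, Mef2c with 660 ± 133, Sall1 with 635 ± 78.1, Irf8 with 353 ± 39.1, Mef2a with 176 ± 28.3, Sall3 with 134 ± 24.9 and Runx1 with 66.1 ± 10.1. The ranges of Mef2c (562 to 854) and Sall1 (528 to 715) overlapped, as did those of Mef2a (147 to 202) and Sall3 (110 to 161). In Positive LPS the order became Spi1 (5942 ± 1018, n = 5), Maf (860 ± 132), Irf8 (581 ± 86.7), Mef2c (525 ± 38.8), Sall1 (468 ± 64.6), Mef2a (199 ± 13.8), Sall3 (125 ± 24.9) and Runx1 (116 ± 23.0). Irf8 thus stood 2 places higher than in Positive PBS, although its range (514 to 728) overlapped those of both genes it passed, Mef2c (502 to 593) and Sall1 (372 to 538). The places of Maf and Spi1 rest on the annotation, since the deposited spans hold 3642 and 1363 exon bases and the full annotation 8241 and 2695. With the full exons Spi1 still led in both positive groups, with 1119 and 3005 normalised counts per kb. Maf then stood at 443 in Positive PBS, behind Spi1, Mef2c (660) and Sall1 (634), and at 380 in Positive LPS, behind Spi1, Irf8 (580), Mef2c (525) and Sall1 (467).

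In input the order per kb was another. Mef2c led in Input PBS with 553 ± 34.9 normalised counts per kb (n = 4), followed by Maf (252 ± 11.5), Sall1 (168 ± 37.3), Mef2a (134 ± 40.0), Spi1 (119 ± 18.4), Sall3 (49.5 ± 9.36), Irf8 (23.0 ± 3.29) and Runx1 (5.27 ± 1.53). In Input LPS Mef2c still led with 548 ± 56.8, followed on this length by Spi1 (245 ± 38.6) and Maf (217 ± 27.7), whose ranges overlapped. The remaining order there was Mef2a (174 ± 28.7), Sall1 (170 ± 28.2), Sall3 (49.8 ± 6.57), Irf8 (41.4 ± 2.76) and Runx1 (11.1 ± 0.53). With the full exons Mef2c led input as well, but Sall1 (168 in Input PBS and 170 in Input LPS) and, in Input LPS, Mef2a (142) stood above Spi1 (60.0 and 124) and Maf (112 and 95.8).

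The next comparison asked which factors changed 24 h after LPS. In the positive fraction 5 of the 8 tested factors were called, 3 higher and 2 lower, where 33.8% of all genes tested were called, 19.0% higher and 14.9% lower. Spi1, Irf8 and Runx1 rose, Sall1 and Mef2c fell, and Sall3, Mef2a and Maf did not pass. In input 3 of the 8 were called, all higher, where 12.4% of genes were called and 7.16% were called higher. These 3 were again Spi1, Irf8 and Runx1. In these bulk libraries a change in the number of cells of a type and a change in RNA per cell cannot be told apart.

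**Figure D3:**
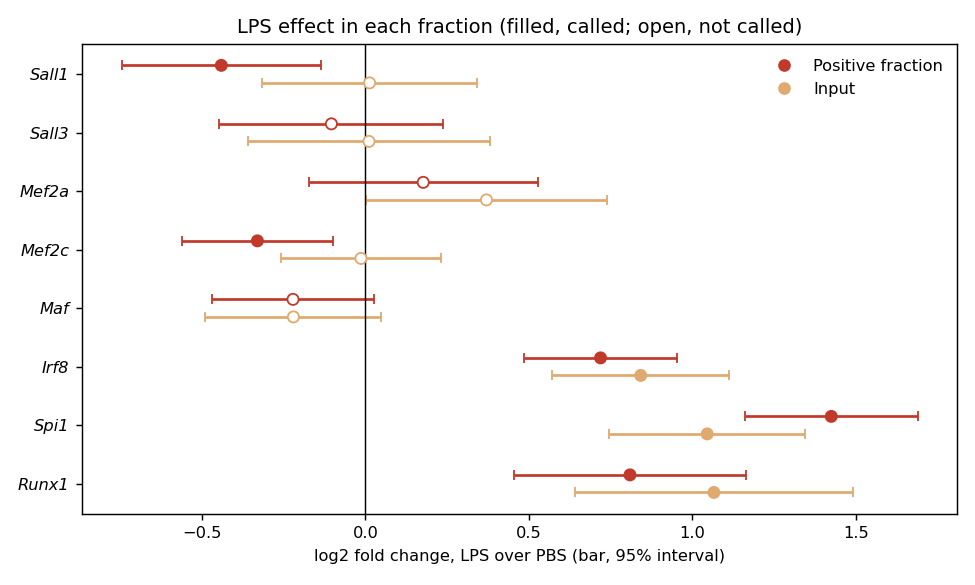
LPS against PBS (log2 fold change, with 95% intervals) of the 8 tested lineage factors in the positive fraction and in input. Spi1 has the largest change in the positive fraction (1.42), and Sall1 (-0.44) and Mef2c (-0.33) are below 0 there but near 0 in input.

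Spi1 encodes PU.1. Positive libraries of PBS animals held it at 2964 (animal 268), 3074 (272), 3045 (273) and 2981 (506) normalised counts. In LPS animals it stood at 7784 (266), 7857 (267), 6764 (270), 10454 (271) and 7638 (507). The lowest LPS library was thus above the highest PBS library, and the PBS libraries differed from each other by little. The increase was 2.69-fold (log2 1.42, SE 0.12, adjusted p = 7.17e-08). In input Spi1 went from 150, 199, 150 and 147 (animals 268, 272, 273 and 506) to 372, 380, 267 and 316 (266, 267, 270 and 507), again without overlap. That increase was 2.06-fold (log2 1.05, SE 0.14, adjusted p = 4.57e-05).

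Irf8 encodes an interferon regulatory factor that partners with PU.1 on DNA. Its normalised counts in the positive fraction were 2725, 2252, 2240 and 2718 in PBS animals 268, 272, 273 and 506. They were 3615, 3720, 4142, 5121 and 3846 in LPS animals 266, 267, 270, 271 and 507. All LPS libraries lay above all PBS libraries, and the 2 lower PBS values were those of the male animals 272 and 273. In Positive LPS the male animal 267 lay above the female animal 266, and Irf8 was not called for sex in edgeR with sex as a term (adjusted p = 0.233). The increase with LPS was 1.65-fold (log2 0.72, SE 0.11, adjusted p = 4.19e-05). In input Irf8 stood at 195, 153, 141 and 159 in PBS animals and at 274, 305, 310 and 275 in LPS animals, a 1.79-fold increase (log2 0.84, SE 0.13, adjusted p = 0.000137) without overlap.

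Runx1 encodes a Runt-domain factor of early haematopoiesis, and its promoter, printed above, carried the paired RUNX letters. Positive libraries held 866, 609, 849 and 833 normalised counts in PBS animals 268, 272, 273 and 506. In LPS animals 266, 267, 270, 271 and 507 these were 1054, 1345, 1563, 1743 and 1206. The groups did not overlap, and the increase was 1.75-fold (log2 0.81, SE 0.16, adjusted p = 0.000723). In input, where it was the least abundant of the tested factors, Runx1 stood at 62.0, 40.2, 64.6 and 84.8 in PBS animals and at 129, 136, 139 and 125 in LPS animals. That increase was 2.09-fold (log2 1.07, SE 0.20, adjusted p = 0.00105), again without overlap.

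Spi1, Irf8 and Runx1 were the 3 of 8 factors whose positive groups did not overlap, where 30.1% of all genes tested had groups without overlap. Animal 271 had the highest positive value of Spi1, Irf8 and Runx1, and its positive library also held the largest share of ribosomal Rn45s, 1.30% of counts against 0.121% to 0.313% in the other libraries. Without that library the 3 calls held, as they did under all 29 alternative settings tried. Blood leukocytes also use these 3 factors, so their markers are given beside them. The study waited 3 to 4 weeks after tamoxifen to avoid tagging short-lived blood monocytes. It also reported a small EGFP-positive population in these mice without tamoxifen, which mostly carried the microglia marker CD11b. Of 14 neutrophil genes, 9 were tested, of which 6 were higher and 1 lower with LPS in the positive fraction and 7 were higher in input. Their summed level rose from 2258 to 2543 normalised counts in Positive PBS to 12192 to 28928 in Positive LPS. In input it rose from 880 to 1373 in PBS animals to 6776 to 11612 in LPS animals. The higher sums in the positive fraction did not hold for most of the list. In both treatments 2 of the 9 tested genes were higher and 4 lower in positive than in input. Their median log2 difference was -1.26 in PBS animals and -0.68 in LPS animals. The defining neutrophil gene Ly6g was at 0 in all libraries, and whether its reads were not assigned to it could not be told. Of 8 monocyte genes, 6 were tested, of which 3 were higher and 2 lower in the positive fraction, with summed levels of 1233 to 2974 in Positive PBS and 1383 to 2112 in Positive LPS. The part of such cells in the results for Spi1, Irf8 and Runx1 was not tested.

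Sall1 is a zinc finger repressor and a defining factor of microglia among tissue macrophages. Its positive normalised counts were 3432, 3395, 2775 and 3758 in PBS animals 268, 272, 273 and 506. They were 1957, 2716, 2388, 2415 and 2828 in LPS animals 266, 267, 270, 271 and 507. The groups overlapped, because LPS animal 507 lay above PBS animal 273. The decrease was 1.36-fold (log2 -0.44, SE 0.14, 95% interval -0.75 to -0.14, adjusted p = 0.0185). Without Positive PBS 506, the highest library, the log2 change was -0.38 and Sall1 was no longer called (adjusted p = 0.0626).

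In input Sall1 stood at 797, 832, 738 and 1173 normalised counts in PBS animals 268, 272, 273 and 506 and at 928, 904, 690 and 1047 in LPS animals 266, 267, 270 and 507. The groups overlapped almost wholly, and the log2 change was 0.01 (SE 0.15, 95% interval -0.32 to 0.34, adjusted p = 0.968). In both treatments animal 506 or 507 had the highest input value.

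Sall3, on chromosome 18, encodes a zinc finger factor related to Sall1. Its positive libraries stood at 1089, 803, 848 and 1176 normalised counts in PBS animals and at 796, 1074, 761, 781 and 1140 in LPS animals, in the same order of animals. The values of both groups were interleaved, and the log2 change was -0.10 (SE 0.16, 95% interval -0.45 to 0.24, adjusted p = 0.629). In input it went from 360 ± 68.2 (SD, n = 4) to 363 ± 47.9 (n = 4), a log2 change of 0.01 (SE 0.17, 95% interval -0.36 to 0.38, adjusted p = 0.975). The interval in the positive fraction includes the decrease found for Sall1.

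Mef2c encodes a MADS-box factor that both microglia and neurons use. Its normalised counts in the positive fraction were 9902, 8831, 9302 and 13427 in PBS animals 268, 272, 273 and 506. In LPS animals 266, 267, 270, 271 and 507 they were 7965, 7953, 8098, 7881 and 9325. LPS animal 507 overlapped the PBS group, and PBS animal 506 stood well above all others. The decrease was 1.26-fold (log2 -0.33, SE 0.11, 95% interval -0.56 to -0.10, adjusted p = 0.0194), just past the threshold on size (0.322).

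The call for Mef2c depended on the libraries and on the fit. Without Positive PBS 506 the log2 change of Mef2c was -0.18 (adjusted p = 0.111), and with both input and positive libraries of animals 506 and 507 left out it was -0.23 (adjusted p = 0.0693). Leaving out Positive LPS 266, 267, 270 or 271 in turn left Mef2c with an adjusted p between 0.0346 and 0.0432 but a change under the fold threshold. With every library kept, the replicate block in limma also left Mef2c under that threshold (log2 -0.31, adjusted p = 0.0248), for 4 called factors instead of 5, and it was not called with all 18 libraries (log2 -0.28, adjusted p = 0.160). Of the 99 neuron genes, 43 were lower and none higher with LPS in the positive fraction, with a median log2 change of -0.32, and their summed levels did not overlap between the groups. The part of neuronal RNA in the result for Mef2c was not tested. In input Mef2c went from 8684 ± 548 (SD, n = 4) to 8605 ± 893 (n = 4), a log2 change of -0.01 (SE 0.11, 95% interval -0.26 to 0.23, adjusted p = 0.955).

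Mef2a encodes a second MADS-box factor of the same family. Its normalised counts on tagged ribosomes were 2425, 1878, 1767 and 2386 in PBS animals 268, 272, 273 and 506. They were 2329, 2158, 2606, 2393 and 2462 in LPS animals 266, 267, 270, 271 and 507. The groups overlapped, with a log2 change of 0.18 (SE 0.16, 95% interval -0.17 to 0.53, adjusted p = 0.400). In input the values were 1842, 1125, 1313 and 2172 in PBS animals and 2388, 1601, 2262 and 2091 in LPS animals, a log2 change of 0.37 (SE 0.17, adjusted p = 0.163).

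The spread of Mef2a within groups followed the sex of the animals, which the labels give. Sex was not balanced, with 2 males among the 4 PBS animals and 1 among the 5 LPS animals. Male animals had between 1125 and 1601 normalised counts in input (n = 3) and between 1767 and 2158 in the positive fraction (n = 3). Female animals had between 1842 and 2388 (n = 5) and between 2329 and 2606 (n = 6). In each of the 4 groups every male lay below every female.

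With sex as a term in the fit, Mef2a was lower in males by a log2 difference of -0.46 (SE 0.07, adjusted p = 0.00326). It was the 1 factor of 8 called for sex, where 1.84% of all genes tested were called. That fit counts the input and positive libraries of an animal separately, although sex differs only between animals (3 male, 6 female). With the replicate block by animal in limma, added after seeing the data, the log2 difference of Mef2a was -0.45 (SE 0.09, adjusted p = 0.0347), again the 1 factor of 8 called, where 0.513% of genes were called. In the fit without the block the other factors had adjusted p-values from 0.135 (Mef2c) to 0.950 (Maf). With the sex term the LPS effect on Mef2a was 0.06 in the positive fraction (adjusted p = 0.653) and 0.28 in input (adjusted p = 0.0619). In female animals only, the log2 changes of Mef2a with LPS were 0.02 and 0.16.

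**Figure D4:**
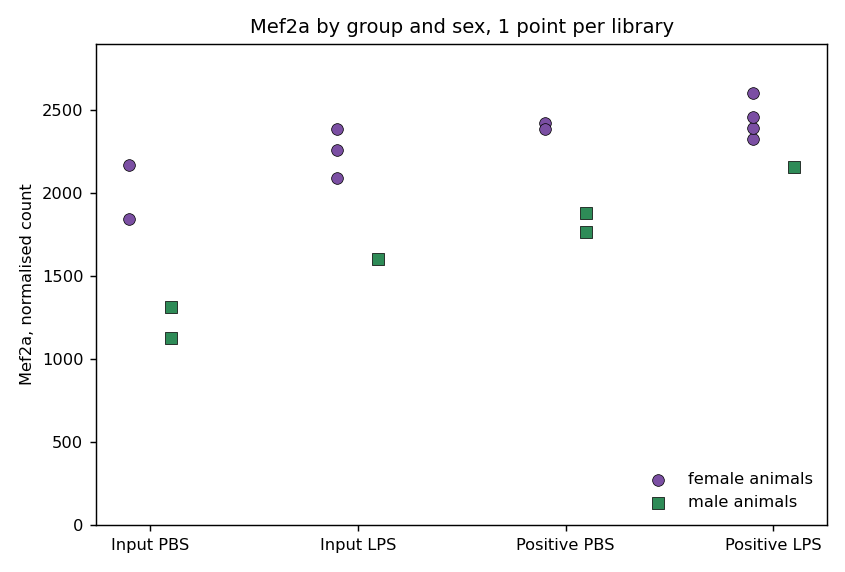
Normalised counts of Mef2a in each library of the 4 groups, with male and female animals marked. In every group the male animals (1125 to 1601 in input, 1767 to 2158 in the positive fraction) lie below the female animals (1842 to 2388 and 2329 to 2606).

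Maf encodes a large MAF-family bZIP factor. Its normalised counts in the positive fraction were 4011, 3110, 3308 and 4181 in PBS animals 268, 272, 273 and 506. They were 3063, 3811, 2532, 2904 and 3355 in LPS animals 266, 267, 270, 271 and 507. The groups overlapped and Maf did not pass (log2 -0.22, SE 0.12, 95% interval -0.47 to 0.03, adjusted p = 0.134). In female animals only, an alternative chosen after seeing the data, it was called (log2 -0.47, adjusted p = 0.0267).

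In input Maf stood at 981, 885, 909 and 903 normalised counts in PBS animals and at 852, 822, 640 and 845 in LPS animals. These groups did not overlap, but the change did not pass (log2 -0.22, SE 0.12, adjusted p = 0.264). With Spi1, Irf8 and Runx1 this made 4 of the 8 factors without overlap in input, where 24.1% of genes tested had none. Maf is also used by macrophages at the brain's borders, for which 9 marker genes were summed. Of these, 6 were lower and none higher with LPS in the positive fraction, with a median log2 change of -0.87. Their sums were 10389, 6012, 5365 and 10278 normalised counts in PBS animals 268, 272, 273 and 506. In LPS animals 266, 267, 270, 271 and 507 they were 4990, 4943, 4074, 3658 and 6110. Animals 268 and 506 had both the highest sums and the highest Maf, while animal 267, next in Maf, had a lower sum than animals 272 and 273, which had less Maf. The part of these cells in the values of Maf was not tested.

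Bhlhe41 encodes a basic helix-loop-helix repressor. It was listed at 0 in all 17 libraries, and so were 2924 of the 22013 protein-coding genes in the file (13.3%). At these depths 3 counts would make up from 8.54e-06% to 1.31e-05% of the total. The deposited span of Bhlhe41 held 2008 exon bases, against 6720 in the full annotation. Whether the gene was silent or its reads were not assigned to it could not be told from the deposited counts. Its relative Bhlhe40 was measured, and did not pass in the positive fraction (log2 -0.04, adjusted p = 0.734) or in input (log2 0.08, adjusted p = 0.631).

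Whether the LPS effect differed between the fractions was tested as an interaction. None of the 8 factors was called by edgeR (0 of 8, where 6.88% of all genes were called), with 1 at an unadjusted p under 0.05. DESeq2 and limma with the replicate block by animal also called 0. The differences, positive minus input, were -0.45 for Sall1 (SE 0.21, adjusted p = 0.232), -0.32 for Mef2c (SE 0.16, adjusted p = 0.272) and 0.38 for Spi1 (SE 0.18, adjusted p = 0.262). For Maf the difference was 0.00 (SE 0.17, 95% interval -0.38 to 0.37, adjusted p = 0.999). With the replicate block as a fixed animal term in edgeR, Sall1 was called (log2 -0.45, adjusted p = 0.0463), and it missed the threshold with the block in limma (log2 -0.46, adjusted p = 0.0504). Without the block, the changes of Sall1 and Mef2c in the positive fraction were thus not shown to differ from those in input.

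Relatives of the factors within their families were measured next, 16 genes of which 12 were tested. Of these 3 rose and 1 fell in the positive fraction, where 33.8% of all genes tested were called in either direction. Their median log2 change was 0.13 (0.01 over all genes tested), while scaling on the microglia list gave 0 higher, 1 lower and a median of -0.05. Irf5, which acts downstream of Toll-like receptors, rose by 0.41 (adjusted p = 0.0112), and the small MAF factor Mafk by 0.49 (adjusted p = 0.0308). The call of Mafk was lost under 8 of 29 alternatives, 5 of them with a library left out (adjusted p up to 0.0767). Irf4 fell from 53.8 ± 21.0 normalised counts (SD, n = 4) to 30.2 ± 6.30 (n = 5; log2 -0.83, adjusted p = 0.0306), at low counts, and lost its call under 9 of 28 alternatives, among them without Positive PBS 506 (adjusted p = 0.128).

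In input 2 of the 12 relatives rose and none fell, where 12.4% of all genes tested were called in either direction. Their median was 0.18 (0.00 over all genes), against 1 higher, 2 lower and a median of -0.15 with scaling on the microglia list. The 2 that rose were the small MAF factors Maff (log2 1.56, adjusted p = 0.000177) and Mafk (log2 0.90, adjusted p = 0.00213). Maff went from 160 ± 34.6 to 473 ± 113 in input but from 342 ± 72.2 to 415 ± 126 in the positive fraction, and the difference between the fractions was called (log2 -1.28, adjusted p = 0.0202), though neither without animals 506 and 507 nor in females only. Mafa, Mafg, Mef2d, Runx2, Runx3, Sall2 and Bhlhe40 were called in neither fraction.

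Partner proteins numbered 13, all tested, and comprised the core-binding factor subunit Cbfb, histone deacetylases and members of the NuRD chromatin complex. With LPS 3 rose and 2 fell in the positive fraction (median log2 change 0.08), near the 33.8% of all genes tested that were called. Scaling on the microglia list gave 1 higher and 3 lower (median -0.10). In input edgeR called 0, DESeq2 called 0 and limma with the replicate block 1. By edgeR 7 had an unadjusted p under 0.05 in input, as had 4153 of all 14803 genes tested. Among the 3 most abundant, Hdac5, a class II deacetylase known to bind MEF2 proteins, fell in the positive fraction (log2 -0.72, adjusted p = 0.00156), while the NuRD members Chd4 (0.08, adjusted p = 0.299) and Rbbp4 (0.28, under the fold threshold) were not called. Cbfb, the obligate partner of RUNX proteins and picked here after its values were seen, rose from 1279 ± 104 to 1843 ± 244 in the positive fraction (log2 0.53, adjusted p = 0.000582). In input its log2 change was 0.05 (adjusted p = 0.814).

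Other myeloid transcription factors numbered 28, of which 24 were tested. In the positive fraction 8 rose and 5 fell (median 0.19), and in input 8 rose and none fell (median 0.35). Over all genes tested 33.8% were called in the positive fraction and 12.4% in input. Scaling on the microglia list gave 4 higher and 5 lower in the positive fraction and 2 higher and 4 lower in input. The most abundant were Id2, Zeb2 and Cebpb. Cebpb, a C/EBP factor of inflammatory gene expression, rose by log2 1.59 in the positive fraction (adjusted p = 7.88e-07) and 0.76 in input (adjusted p = 0.00681), and the difference between fractions was called (log2 0.84, adjusted p = 0.0405) but lost with any of 10 libraries left out (adjusted p up to 0.102). Id2, an inhibitor of helix-loop-helix factors, rose in the positive fraction (log2 0.59, adjusted p = 0.00119), and Zeb2 did not pass (log2 0.24, adjusted p = 0.0727).

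The 15 homeostatic microglia genes give a scale for the falls of Sall1 and Mef2c. In the positive fraction 11 of them fell and 1 rose, with a median log2 change of -1.43, and in input 10 fell and none rose, with a median of -1.23. Over all genes tested 33.8% were called in the positive fraction (14.9% lower) and 12.4% in input. The growth factor receptor gene Csf1r (log2 -0.16, adjusted p = 0.221) and Sparc (log2 -0.44, adjusted p = 0.0513), both among the most abundant of the list, did not pass. The changes of Sall1 (-0.44) and Mef2c (-0.33) were thus smaller than the list's median. The microglia list as a whole did not fall, with 97 genes higher and 66 lower in the positive fraction (median 0.22) and 77 higher and 20 lower in input (median 0.25).

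**Figure D5:**
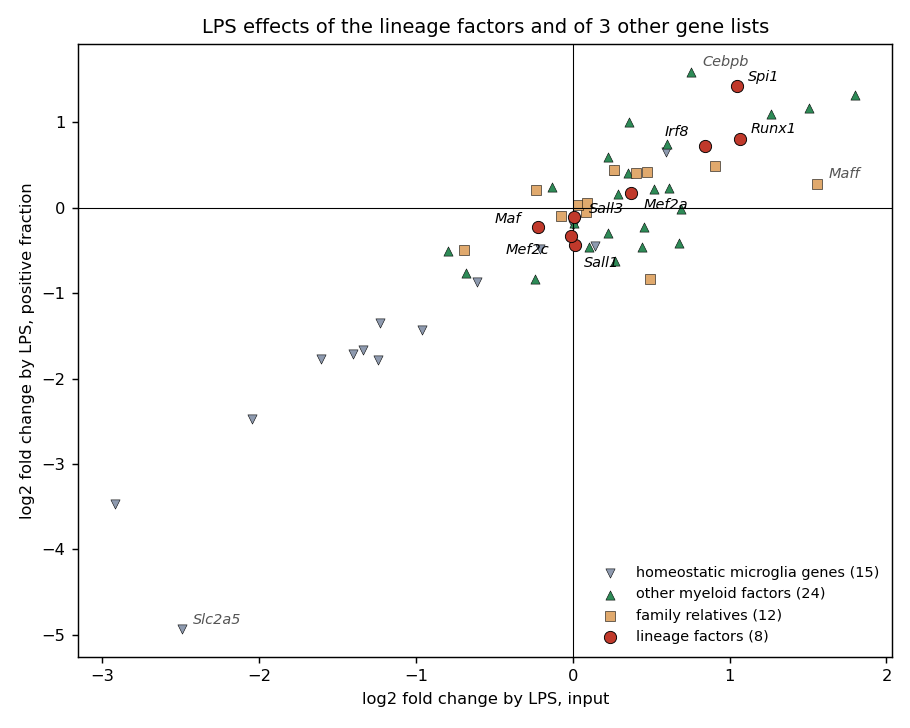
LPS against PBS (log2 fold change) in input (x axis) and in the positive fraction (y axis) for the 8 lineage factors, 12 family relatives, 24 other myeloid factors and 15 homeostatic microglia genes. Spi1, Irf8 and Runx1 lie in the upper right, Sall1 and Mef2c lie just below 0 on the y axis at 0 on the x axis, and most homeostatic genes lie in the lower left; Slc2a5 was labelled after its values were seen.

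The other lists of cell type markers moved as follows with LPS in the positive fraction, where 19.0% of all genes tested were higher and 14.9% lower. Of 138 astrocyte genes 13 were higher and 61 lower (median log2 change -0.30), and of 193 oligodendrocyte genes tested 16 were higher and 60 lower (-0.29). Small panels gave 2 lower of 7 excitatory neuron genes, 4 lower of 7 inhibitory neuron genes, and 1 higher and 3 lower of 6 oligodendrocyte precursor genes. Of 8 endothelial genes 1 was higher and 3 were lower, and the 5 erythrocyte genes had a median of -0.49. Their part in the results for the lineage factors was not tested.

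Genes with the most similar pattern were found for each factor by Pearson's r of log2(normalised count + 1) over the 17 libraries, among 12608 genes with a mean of at least 100. All such values share the same libraries and the split into input and positive, and are given as a description. For Spi1 they were Plek (r = 0.998), Clec5a (0.997) and Fcgr1 (0.997), for Irf8 Itgb2, Arhgap30 and Sipa1 (0.994 each), and for Runx1 Arl11 (0.994), Irf8 (0.991) and Tlr7 (0.990). For Maf they were Rasal3 (0.992), Ttc7 (0.992) and Snx5 (0.991). Those for Sall1 were Ets1 (0.982), Pon3 (0.982) and Ccl6 (0.981), and those for Sall3 were Pon3 (0.979), Mylip (0.977) and Esr1 (0.976).

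The MEF2 factors, with the smallest differences between the fractions, had other neighbours. For Mef2c they were Cpne4 (r = 0.881), Slc8a1 (0.851) and Celf2 (0.850). For Mef2a they were Top2b (0.938), Ncoa2 (0.921) and the X-linked Eif2s3x (0.907). With sex as a term and the replicate block by animal, their log2 differences between males and females were -0.28 for Top2b (adjusted p = 0.0359, under the threshold on size), -0.28 for Ncoa2 (adjusted p = 0.0958) and -0.56 for Eif2s3x (adjusted p = 0.000375). They were picked for their likeness to Mef2a, so their difference by sex adds no independent evidence to that of Mef2a.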

How the data were processed

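RNA was sequenced from input and positive fractions of 9 animals (18 libraries, polyA-selected, strand-specific). Per the labels and the study's methods, the authors aligned reads to mm10 in Strand NGS 3.1 and deposited estimated counts per RefSeq gene, of which 81.6% of nonzero values were not whole, and log2 values after DESeq normalisation and subtraction of a baseline. Counts were rounded here. The nearly empty Input LPS 271 library was left out. Median-of-ratios size factors rested on 15766 genes. Genes with over 20 normalised counts in all libraries of at least 1 group were tested (14803), which is the study's filter.

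All comparisons came from 1 fit of edgeR 4.0.16 (quasi-likelihood, R 4.3.3) in which each group had its own mean, leaving 13 residual degrees of freedom. Adjusted p-values are Benjamini-Hochberg over all genes tested and are edgeR's unless another tool is named. A call needed a value below 0.05 and a log2 change of over 0.322, the size the study used. The study's own test was an analysis of variance with fraction and treatment as factors, and the count model takes its place because counts were deposited. Log2 changes are on the fitted scale, and 95% intervals use the SE and the residual degrees of freedom. Limits from 3 counts cover counting error only.

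Input and positive libraries of an animal deviated together from their group means, with correlations from 0.160 to 0.519 over 8 pairs, so the replicate block by animal was fitted as an alternative (limma 3.58.1, or a fixed term in edgeR). Other alternatives were TMM, DESeq2 1.42.0, other filters, all 18 libraries, libraries left out in turn, sex as a term, scaling on the microglia list and the deposited log2 values. Female animals only, and the block in the fit of sex, were added after seeing the data. The fits were tested on simulated data for the LPS effect in the positive fraction, with 200 changed genes. There edgeR recovered 197, with 5.74% of its calls false. DESeq2 recovered 195, with 13.3% of its calls false, and limma with the block 197, with 4.83% false. The 200 genes were among 14583 tested there. Whether the same rates hold for the calls in the deposited libraries, such as those of Sall1 and Mef2c, was not tested.

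Members and lists were chosen with earlier results of these data known. The microglia, astrocyte, oligodendrocyte and neuron lists are tables of the study, and the others were written from general knowledge. Named are all 9 factors, the tested family relatives, the 3 most abundant genes of the other lists and the 3 genes most like each factor. Of the genes this rule names, 2 are not reported here. Exon lengths came from the GENCODE M21 annotation and promoters from RefSeq.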

Additional observations from a re-analysis of the deposited data

Results flagged for a closer look

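Of 32 checks of a lineage factor in a group of 4 or 5 libraries, 4 found a library far from the others of its group, and chance alone flags about 1 in 20. Mef2c stood at 9325 normalised counts in Positive LPS 507, against 7881 to 8098 in the other 4 libraries. Maf stood at 640 normalised counts in Input LPS 270, against 822 to 852. Spi1 stood at 199 normalised counts in Input PBS 272, against 147 to 150, and Runx1 at 609 in Positive PBS 272, against 833 to 866.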

How the results depend on the processing

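Called factors in the positive fraction went from 5 to 3 with the deposited log2 values, where Sall1 (log2 -0.39, adjusted p = 0.0584) and Mef2c were lost, and ranged from 3 (without Positive PBS 506) to 5 with libraries left out. With libraries left out in turn, called genes ranged from 4432 to 5120 in the positive fraction, 1452 to 1979 in input (3 to 4 factors), 5297 to 6066 for enrichment in PBS animals (6 to 7 factors), 7447 to 8127 in LPS animals (6 factors) and 749 to 1263 for the interaction (0 factors). Called genes in input went from 1839 to 1083 without animals 506 and 507, to 740 in females only, and to 4909 with scaling on the microglia list, of which 505 were higher and 4404 lower. Interaction calls went from 1018 to 323 without animals 506 and 507 and 75 in females only, and with the replicate block to 1985 in limma and 1916 in edgeR, where 1 factor was called. The cause was not tested.

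Scaling on the microglia list moved the median log2 change of all genes to -0.17 in the positive fraction and -0.31 in input. Maf was then called in both (log2 -0.41 and -0.56), and the share of calls that were higher went from 56.1% to 28.2% and from 57.6% to 10.3%. The share of higher calls for enrichment in PBS animals, 52.8%, was 37.6% with 18 libraries and 37.0% with the authors' log2 values, and in LPS animals it went from 51.7% to 41.1% with the latter. Spi1, Irf8 and Runx1 stayed called in the positive fraction in all 29 alternatives, while Runx1 in input was not called in females only (log2 0.83, adjusted p = 0.0683). Mef2a in input was called without Input PBS 506 (log2 0.55, adjusted p = 0.0384), and its enrichment in PBS animals with the replicate block (log2 0.42, adjusted p = 0.00491 in limma). No called value changed sign.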
